A study of Homo sapiens with 6 samples.

Results

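The 8 genes described here encode the machinery that cuts, carries, loads and trims peptides for major histocompatibility complex (MHC) class I molecules. They are TAP1, TAP2, TAPBP, PSMB8, PSMB9, PSMB10, ERAP1 and ERAP2. They were chosen by name, for their function, with earlier results of these data known. Each matched 1 Ensembl row among the 58233 rows with an Ensembl gene identifier. All 8 averaged 1 or more across the 6 libraries, so none was lost to the filter on low values. The libraries come from T24, an established human bladder carcinoma cell line, with 3 libraries in each of 2 groups. The VEC group carries a lentiviral vector, and the Q63E group a constitutively active Q63E mutant of the small GTPase RhoC delivered by the same route. Both groups went through puromycin selection, so the controls share the transduction and the drug. The sources used here give neither whether a line was 1 clone or a pool nor whether the 3 libraries of a group were separate cultures. A p-value here thus sets a difference against the variation among these 6 libraries, and that variation may be technical.

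Class I molecules show short peptides from inside the cell to T cells. The proteasome makes most of these peptides, and the subunits PSMB8, PSMB9 and PSMB10 take the place of the constitutive catalytic subunits PSMB5, PSMB6 and PSMB7 to form the immunoproteasome, which is induced by interferon-gamma. TAP1 and TAP2 pair as a transporter that moves peptides into the endoplasmic reticulum. There tapasin, the product of TAPBP, holds the class I molecule at the transporter, and the aminopeptidases ERAP1 and ERAP2 trim peptides to length.

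TAP1 and TAPBP were lower in Q63E than in VEC, and the other 6 genes did not pass the test. TAP1 had a mean of 8.81 in Q63E against 12.3 in VEC, and TAPBP 18.3 against 22.5. The values were read as FPKM, scaled by transcript length and by library, although no header or label states a unit. In limma, with Benjamini-Hochberg adjustment over 13346 tested genes, 2 of the 8 members were called lower at an adjusted p under 0.05. None was called higher, and 0 were higher at an unadjusted p under 0.05. Of all tested genes, 25.3% were called, 14.0% lower (1873 genes) and 11.3% higher (1510 genes). With values rescaled to a common sum the balance turned, to 1591 lower and 1822 higher, while the count of members called higher was still 0. The 2 of 8 called in either direction are 25% of the members, close to the 25.3% of all genes. The groups did not overlap for the same 2 members, against 43.9% of all tested genes. RNA of whole cultures was measured, so fewer cells with a transcript and less of it per cell cannot be told apart. The median log2 fold change was −0.00 over the 8 members, with 4 below 0 and 4 above, and −0.00 over all tested genes.

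The libraries were similar in size. Summed values ran from 726929 to 769026, and read counts could not be recovered, so the depth is unknown and no counting interval is given. RHOC lay between 217.6 and 232 in VEC and between 1726 and 1770 in Q63E, which fits the labels. The row does not separate the transduced from the cell's own RHOC. The epithelial keratins KRT7, KRT8 and KRT18 were abundant, at 507 or more in every library. KRT5, CDH1 and UPK3A were listed at 0 in all 6 libraries, and the urothelial markers UPK1A, UPK1B and UPK2 did not exceed 0.53. Of 9 leukocyte-associated genes, PTPRC and CD3E were listed at 0 throughout. Their summed value was 18.9 to 20.4 in VEC and 10.1 to 11.4 in Q63E, nearly all of it from CD68, which was lower in Q63E. Its part in the results below was not tested. Of 13 epithelial and urothelial markers, 5 were tested and 4 of these were higher in Q63E. Of the 4, the keratin KRT19 changed most on the log2 scale, from 5.67 ± 0.393 (SD, n = 3) in VEC to 161 ± 1.85 in Q63E. EPCAM, which fell under the filter on low values and was not tested, was at 0.313 ± 0.0404 in VEC and 1.52 ± 0.202 in Q63E. The tested marker that was not called, GATA3, went the other way, at 1.79 ± 1.40 in VEC and 0.363 ± 0.352 in Q63E. Its groups overlapped (unadjusted p = 0.0447, adjusted p = 0.121 in limma).

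The genes lie in 4 places. On chromosome 6, within the MHC, TAP2 (32821833 to 32838780), PSMB8 (32840717 to 32844703), PSMB9 (32844136 to 32859585) and TAP1 (32845209 to 32853978) are neighbours, and TAPBP (33299694 to 33314387) lies farther along the same arm. ERAP1 (96760810 to 96808100) and ERAP2 (96875939 to 96919716) are on chromosome 5, and PSMB10 (67934502 to 67937087) is on chromosome 16. These positions are from GENCODE release 29 on GRCh38. TAP1 and PSMB9 are read in opposite directions from starts 487 bases apart in RefSeq, so they share the interval between them. The promoters of TAP1 and TAPBP, the genes that were lower, of PSMB9, the partner of TAP1 in that interval, and of PSMB10, which was close to equal in both groups, are printed below. Each line gives the 250 bases before the start on the gene's strand, from RefSeq on GRCh38.p14. Capitals mark matches, on either strand, to the interferon-stimulated response element (ISRE, searched as GAAA, any 2 bases, GAAA) or the NF-kB motif.
TAP1 (chr6:32853705-32853954, minus strand): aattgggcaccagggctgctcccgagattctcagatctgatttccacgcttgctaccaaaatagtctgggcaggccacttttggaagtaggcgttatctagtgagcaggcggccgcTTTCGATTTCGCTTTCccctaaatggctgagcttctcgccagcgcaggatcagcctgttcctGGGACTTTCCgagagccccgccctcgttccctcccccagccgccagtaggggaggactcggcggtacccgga
TAPBP (chr6:33314079-33314328, minus strand): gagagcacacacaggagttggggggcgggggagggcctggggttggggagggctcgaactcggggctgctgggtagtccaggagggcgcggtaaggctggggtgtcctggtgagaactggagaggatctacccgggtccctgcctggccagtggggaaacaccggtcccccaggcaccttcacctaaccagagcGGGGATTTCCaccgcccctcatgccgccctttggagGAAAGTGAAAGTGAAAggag
PSMB9 (chr6:32853942-32854191, plus strand): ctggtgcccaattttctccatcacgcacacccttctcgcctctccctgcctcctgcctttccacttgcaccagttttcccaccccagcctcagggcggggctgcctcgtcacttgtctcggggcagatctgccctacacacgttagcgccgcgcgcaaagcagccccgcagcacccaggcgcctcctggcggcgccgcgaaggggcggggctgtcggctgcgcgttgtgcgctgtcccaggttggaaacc
PSMB10 (chr16:67936851-67937100, minus strand): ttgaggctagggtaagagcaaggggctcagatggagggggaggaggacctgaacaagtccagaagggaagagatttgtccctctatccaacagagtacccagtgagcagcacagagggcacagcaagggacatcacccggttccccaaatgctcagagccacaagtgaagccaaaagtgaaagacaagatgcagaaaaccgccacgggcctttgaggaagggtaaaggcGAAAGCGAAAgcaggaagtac

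In the TAP1 window, overlapping ISRE matches covered the bases 134 to 119 before the start and an NF-kB match, GGGACTTTCC, the bases 72 to 63. In the TAPBP window, overlapping ISRE matches lay 20 to 5 bases before the start and an NF-kB match, GGGGATTTCC, 56 to 47 bases before it. PSMB10 held an ISRE match, GAAAGCGAAA, 21 to 12 bases before its start. The PSMB9 window held no match to either motif. Over all windows of the 8 members, 12 in number because some genes have a pair of starts, 5 genes held an ISRE match and 3 an NF-kB match. Of 35116 windows of the same length in RefSeq, 3.02% held an ISRE and 9.96% an NF-kB match. The gamma-activated site (GAS, searched as TTCNNNGAA, both strands) was found for PSMB8 and for the second TAP1 window, and in 6.57% of all windows. The GC box (GGGCGG, both strands) was found for 4 members and in 42.6% of windows. The cyclic AMP response element (TGACGTCA) was found for 0 members and in 1.65% of windows. A match is a stretch of letters and not a measured site.

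TAP1 and TAPBP were the 2 members whose window held both an ISRE and an NF-kB match, a grouping made after the values were seen. This grouping rests on the 250-base cut, since the TAP1 matches also lie upstream of PSMB9. Windows with both were rare, 71 of 35116 (0.202%), and belonged to 31 tested genes, TAP1 and TAPBP among them. Of those 31 genes, 10 were lower (32.3%), TAP1 and TAPBP included, and 2 higher (6.45%), with a median log2 fold change of −0.18. Of all tested genes, 14.0% were lower and 11.3% higher. Of 317 tested genes with an ISRE match, 20.8% were lower and 7.26% higher, and of 1527 with an NF-kB match, 16.6% and 12.2%. No test was made of these shares. The grouping was drawn from the same values, so no conclusion is drawn from them.

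Taking the genes in the order of the pathway, the immunoproteasome subunits come first. PSMB8, which replaces PSMB5, had values of 28.8, 25.8 and 24.6 in VEC and 19.1, 22.4 and 25.6 in Q63E. One Q63E library, replicate 3, lay inside the VEC range, and the other 2 lay below it. The log2 fold change was −0.23 (95% interval −0.50 to 0.03, adjusted p = 0.177 in limma). PSMB9, which replaces PSMB6, had values of 18.8, 16.1 and 20.3 in VEC and 19.4, 24.3 and 19.1 in Q63E. The groups overlapped, with Q63E replicate 2 above the rest, and the log2 fold change was 0.18 (95% interval −0.11 to 0.46, adjusted p = 0.336 in limma). PSMB10, which replaces PSMB7, was the most even of the 3, at 27.9, 26.6 and 28.2 in VEC and 27.8, 26.2 and 30.8 in Q63E. Its log2 fold change was 0.03 (95% interval −0.13 to 0.19, adjusted p = 0.787 in limma). Without Q63E replicate 3 the value was −0.03.

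**Figure D1:**
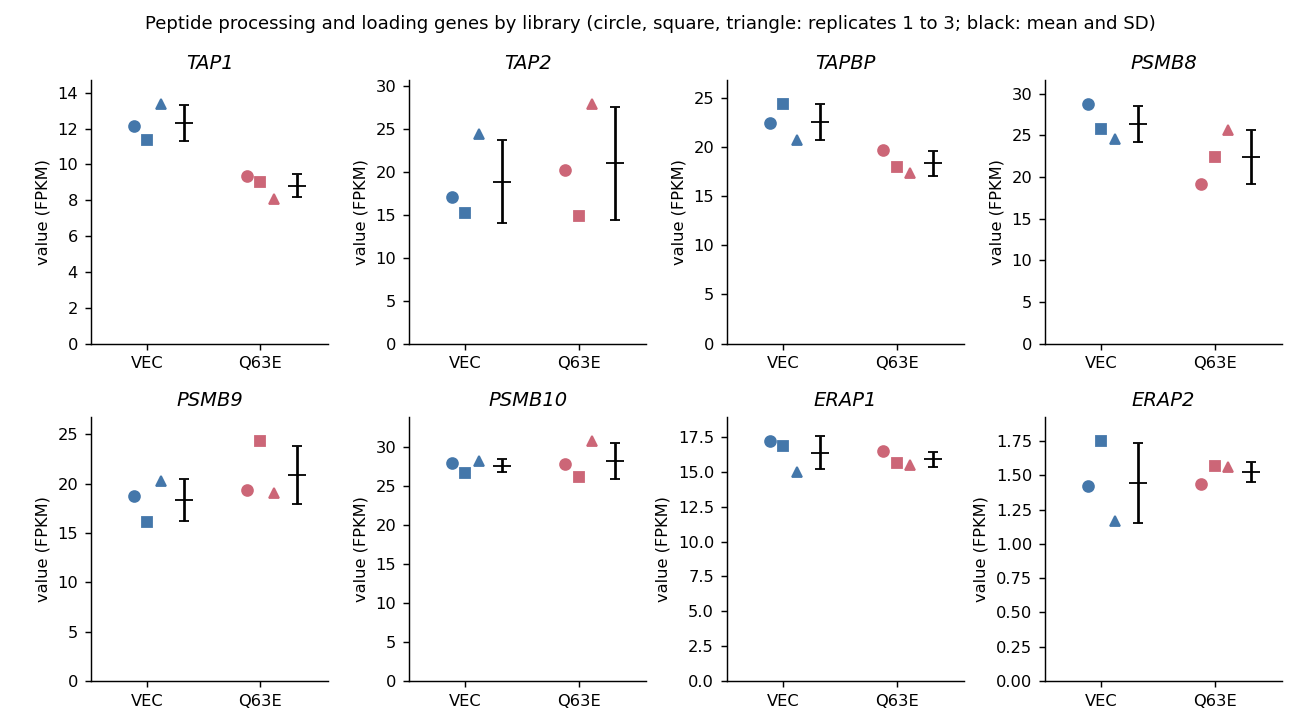
Values of the 8 genes (FPKM, linear axis from 0) in each VEC and Q63E library, with the mean and SD of each group (n = 3) in black. TAP1 and TAPBP are the 2 genes whose Q63E libraries all lie below all VEC libraries, and TAP2 has the widest spread within both groups.

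The constitutive counterparts were several times more abundant in both groups. PSMB5 was at 127 ± 7.63 (SD, n = 3) in VEC and 115 ± 0.835 in Q63E, PSMB6 at 135 ± 2.29 and 144 ± 4.45, and PSMB7 at 217 ± 16.1 and 184 ± 12.4. None of these 3 was called by limma (2 were lower and 1 higher at an unadjusted p under 0.05). The groups did not overlap for any of them, as for 43.9% of all tested genes. The adjusted p was 0.0800 for PSMB5, 0.121 for PSMB6 and 0.0514 for PSMB7. Under 3 of 13 alternatives 1 of them was called lower, and with values rescaled to a common sum 1 was also called higher. Leaving out VEC replicate 2 was one of the 3.

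The balance within each catalytic pair can be read inside a library if the values are per length, as they were taken to be. The PSMB8/PSMB5 ratio was 0.208 ± 0.0117 (SD, n = 3) in VEC and 0.194 ± 0.0284 in Q63E, and the groups overlapped (exact two-sided permutation p = 0.7). The PSMB9/PSMB6 ratio was 0.136 ± 0.0140 in VEC and 0.145 ± 0.0172 in Q63E, also overlapping (exact permutation p = 0.6). The PSMB10/PSMB7 ratio was 0.119, 0.131 and 0.132 in VEC and 0.164, 0.137 and 0.161 in Q63E. Every Q63E library lay above every VEC library, with a log2 difference of 0.27 (exact permutation p = 0.1, the smallest that 3 against 3 allow, and 0.3 adjusted over the 3 ratios). The numerator was nearly level in that ratio, and the denominator had the lower mean in Q63E. Together, PSMB8, PSMB9 and PSMB10 held 13.0%, 13.1% and 13.3% of the summed value of the 6 catalytic subunit genes in VEC. In Q63E they held 13.5%, 13.9% and 14.3% (exact permutation p = 0.1, not adjusted and not among the planned tests). The summed value of PSMB5, PSMB6 and PSMB7 was 456 to 504 in the VEC libraries and 424 to 453 in the Q63E libraries.

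**Figure D2:**
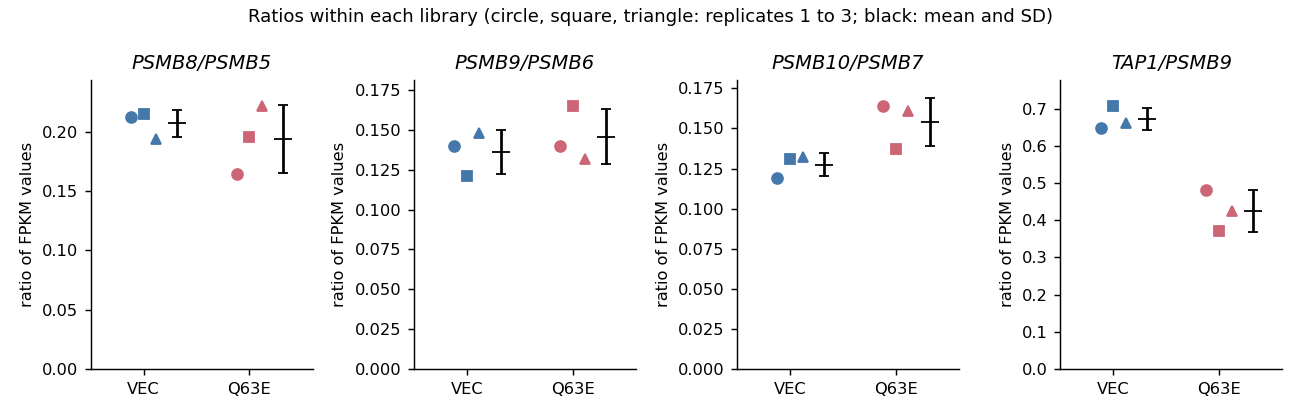
Ratios of FPKM values within each library (linear axis from 0), with the mean and SD of each group (n = 3) in black. PSMB8/PSMB5 and PSMB9/PSMB6 overlap between VEC and Q63E, PSMB10/PSMB7 is higher in every Q63E library and TAP1/PSMB9 lower in every Q63E library.

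Of the transporter subunits, TAP1 passed the test and TAP2 did not, and the difference between them was not tested. TAP1 had values of 12.2, 11.4 and 13.4 in VEC and 9.34, 9.0 and 8.08 in Q63E. The highest Q63E library lay below the lowest VEC library, and the group means differed 0.715-fold, with a log2 fold change of −0.44 (SE 0.087, adjusted p = 0.0132 in limma). TAP2, the other subunit, had values of 17.0, 15.2 and 24.3 in VEC and 20.2, 14.9 and 27.9 in Q63E. Replicate 3 was the highest in both groups and replicate 2 the lowest, and the groups overlapped across their whole range. Its log2 fold change was 0.13 (95% interval −0.47 to 0.74, adjusted p = 0.739 in limma), the widest interval of the 8. The sign turned without VEC replicate 2 (−0.0018) or without Q63E replicate 3 (−0.09). The TAP1/TAP2 ratio was 0.671 ± 0.106 (SD, n = 3) in VEC and 0.453 ± 0.158 in Q63E, with overlapping groups.

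TAP1 and PSMB9, which share the interval printed above, had log2 fold changes of opposite sign, that of PSMB9 within its error. The TAP1/PSMB9 ratio was 0.649, 0.707 and 0.660 in the VEC libraries and 0.482, 0.370 and 0.424 in the Q63E libraries, so the groups did not overlap. The log2 difference was −0.67. This ratio was picked after the values were seen and was not tested. In GENCODE release 29 the PSMB9 gene model spans the whole of TAP1, 8770 bases on the opposite strand, and PSMB8-AS1, a noncoding gene, overlaps TAP1, PSMB8 and PSMB9. PSMB8-AS1 lay between 1.76 and 2.29 in all 6 libraries. The strand setting of the counting is not given in the sources used here, so reads of these overlapping genes may be shared, and their part in the ratio was not tested. TAP2 is covered whole by a protein-coding gene model on the same strand, ENSG00000250264, listed between 0 and 1.66. PSMB10 is overlapped over 1516 bases by another on its strand, ENSG00000261884, listed between 0.7 and 1.89 and not called.

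TAPBP, which encodes tapasin, had values of 22.4, 24.4 and 20.7 in VEC and 19.7, 17.9 and 17.3 in Q63E. The groups did not overlap, with a gap of about 1 unit between the lowest VEC and the highest Q63E library. The means differed 0.814-fold, with a log2 fold change of −0.28 (SE 0.079, adjusted p = 0.0426 in limma). This call lay close to the threshold and was lost under 9 of 13 alternatives, among them leaving out VEC replicate 1 or 2 or Q63E replicate 2 or 3 (adjusted p = 0.0963, 0.108, 0.110 and 0.121 in limma). The call of TAP1 was lost under 1 of the 13 and passed each time 1 library was left out (adjusted p = 0.0215 to 0.0430 in limma).

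Neither trimming aminopeptidase passed the test. ERAP1 had values of 17.2, 16.9 and 15.0 in VEC and 16.5, 15.7 and 15.5 in Q63E. All 3 Q63E libraries lay inside the VEC range, with a log2 fold change of −0.04 (95% interval −0.20 to 0.13, adjusted p = 0.721 in limma). ERAP2, which prefers other peptide ends than ERAP1, was the lowest of the 8 genes, at 1.42, 1.75 and 1.17 in VEC and 1.44, 1.57 and 1.56 in Q63E. Here too the Q63E libraries lay inside the VEC range, with a log2 fold change of 0.05 (95% interval −0.31 to 0.42, adjusted p = 0.837 in limma). On the log2(value + 1) scale the change of such a low gene is understated. CAST, which overlaps the end of ERAP1 by 18786 bases on the opposite strand, was called higher in Q63E. It lay between 83.3 and 85.5 in the VEC libraries and between 103 and 105 in Q63E. With the strand setting not given, reads of CAST and ERAP1 may be shared, and their part in the ERAP1 values was not tested. LNPEP, a related aminopeptidase next to ERAP2 that trims peptides in endosomes, rose from 5.61 ± 0.240 to 6.87 ± 0.0569 (log2 fold change 0.25, adjusted p = 0.0497 in limma). Its call was lost under 9 of 13 alternatives, each leaving-out of 1 library among them (highest adjusted p = 0.127 in limma).

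**Figure D3:**
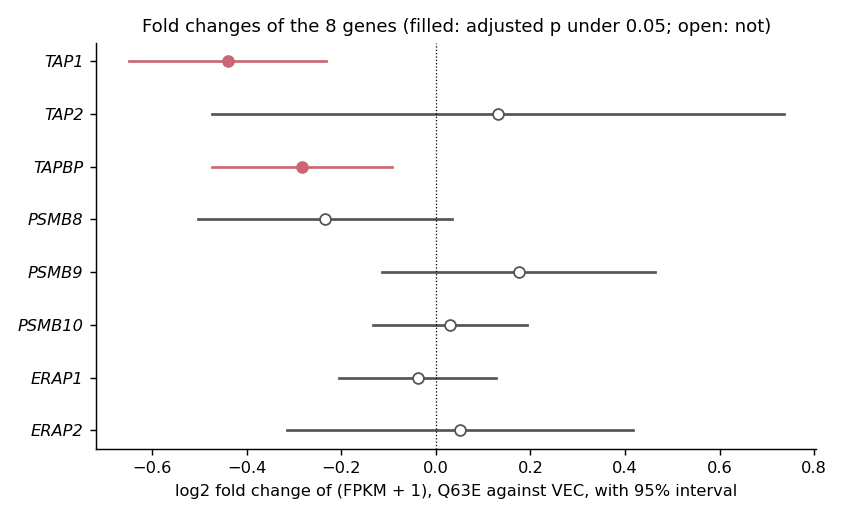
Log2 fold changes of value + 1 in Q63E against VEC with 95% intervals from limma for the 8 genes. The intervals of TAP1 (−0.65 to −0.23) and TAPBP (−0.47 to −0.09) lie below 0, and the others include it.

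Ranked by level in VEC, with the values taken as per length, the order ran PSMB10 (27.6), PSMB8 (26.4), TAPBP (22.5), TAP2 (18.8), PSMB9 (18.4), ERAP1 (16.4), TAP1 (12.3) and ERAP2 (1.45). The ranges of PSMB10 and PSMB8 overlapped, as did those of each neighbouring pair from TAPBP to ERAP1. In Q63E TAPBP stood in the fifth place rather than the third, behind PSMB10, PSMB8, TAP2 (21.0) and PSMB9 (20.9). There the ranges from PSMB8 to TAPBP overlapped from neighbour to neighbour. TAP1 and ERAP2 were the lowest in both groups, apart from each other and from the genes above them.

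Genes near the members lay on both sides of 0. Of 46 other tested genes within 1 Mb of TAP1, 20 had a log2 fold change below 0, 4 were called lower and 2 higher, and their median was 0.02. Within 1 Mb of TAPBP the median of 32 genes was 0.04, with 3 lower and 3 higher. The lowered neighbours of TAP1 include HLA-DPA1 and HLA-DPB1, which encode the chains of a class II molecule, at −0.49 and −0.42, together with BAK1 (−0.32) and GPSM3 (−0.56). These 4 were named after their values were seen. Around PSMB10 the median of 44 genes was 0.10, with 4 called higher by limma. Around ERAP2 all 4 tested neighbours lay above 0, with a median of 0.20.

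**Figure D4:**
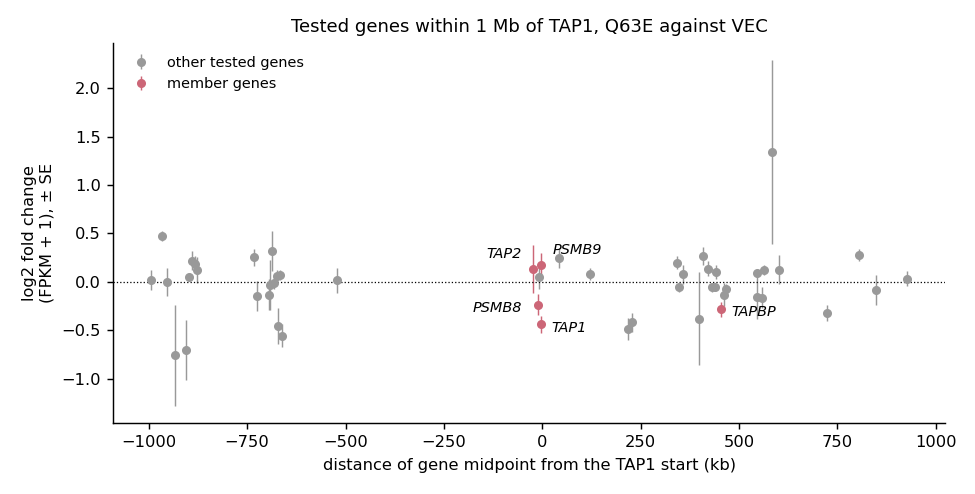
Log2 fold changes of value + 1 (± SE) for tested genes within 1 Mb of the TAP1 start, against the distance of each gene's midpoint in kb. The member genes are in red, and the surrounding genes scatter on both sides of 0, with a median of 0.02 over the 46 that are not members.

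By the pattern over the 6 libraries, the protein-coding gene most like TAP1 was WWC3 (Pearson r = 0.995 of log2 values), which was lower in Q63E. For TAPBP it was RCL1 (r = 0.990), for PSMB8 CCNQ (0.994), for PSMB9 ANKRD37 (0.990) and for PSMB10 LDAH (0.983). For TAP2 it was CHTF18 (0.985), for ERAP1 YEATS4 (0.980) and for ERAP2 CIT (0.992). Each is the best of 11560 genes over the same 6 libraries, so a high r is set partly by the search. TAP1 had 943 genes with an r over 0.9 and TAPBP 422, and the 6 members that were not called had between 29 and 107. Genes that share a difference between the groups correlate over these 6 libraries, so these counts largely restate the calls.

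Other genes of the pathway were read by list. Of 11 other subunits of the proteasome core, 1 was lower and 0 higher in limma (2 higher at an unadjusted p under 0.05), with a median log2 fold change of 0.03. The lower one was PSMA1, from 139 ± 1.46 (SD, n = 3) to 128 ± 3.33 (log2 fold change −0.12), and its call was lost under 10 of 13 alternatives. With values rescaled to a common sum, or without VEC replicate 1, the list had 0 lower and 2 higher. Of 9 proteasome activators and assembly factors 2 were lower and 0 higher (0 also at an unadjusted p under 0.05), and 4 of 13 alternatives left 1 lower. PSMG1, an assembly chaperone of the core particle, was at 70.7 ± 4.68 in VEC and fell to 45.2 ± 0.851 in Q63E (−0.63 on the log2 scale, with an adjusted p of 6.25e-04 in limma). Its 5 tested neighbours within 1 Mb had a median of −0.10. PSME4, the activator PA200, fell from 20.3 ± 0.405 to 16.9 ± 0.563, and its call was the one lost under those 4, which include leaving out VEC replicate 2, Q63E replicate 1 or Q63E replicate 3. PSME2, a subunit of the interferon-inducible activator PA28, was at 158 ± 6.24 in VEC and 134 ± 12.9 in Q63E and did not pass (adjusted p = 0.0603 in limma).

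Chaperones of the loading complex and related genes had 2 higher and 0 lower of 6 in limma (0 lower also at an unadjusted p under 0.05), with a median of 0.17, and 8 of 13 alternatives left 1 higher. Calnexin (CANX), which binds newly made class I heavy chains, rose from 199 ± 2.31 (SD, n = 3) to 230 ± 1.86. HSPA5, the general chaperone BiP, rose from 238 ± 4.01 to 261 ± 8.27. That call was lost under those 8, which include leaving out any library but Q63E replicate 3. Calreticulin (CALR), at 423 ± 4.61 and 409 ± 2.76, and PDIA3, at 157 ± 3.38 and 168 ± 3.87, did not pass. TAPBPL, the tapasin relative that edits peptides outside the loading complex, was low in both groups, at 5.70 ± 1.81 and 6.51 ± 0.131. TAPBP was thus lower while calnexin was higher in the same libraries.

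Among 8 other peptidases that trim or destroy antigenic peptides, 4 were higher and 1 lower, and 9 of 13 alternatives left 2 higher. NRDC (nardilysin) rose from 52.5 ± 1.73 (SD, n = 3) to 71.3 ± 3.11 and NPEPPS, the puromycin-sensitive aminopeptidase of the cytosol, from 61.8 ± 3.13 to 74.4 ± 1.48. LAP3, a leucine aminopeptidase induced by interferon-gamma, fell from 49.4 ± 1.75 to 35.6 ± 1.63 (log2 fold change −0.46). The 5 tested genes within 1 Mb of LAP3 had a median of −0.40, close to its own change.

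The class I molecules themselves are the partners that receive the peptides. Of HLA-B, HLA-C, HLA-E, HLA-F, B2M and the class I transcription activator NLRC5, 5 of 6 were called lower and 0 higher in limma (0 higher at an unadjusted p under 0.05), with a median of −0.40. The count was 3 with no filter on low values, without VEC replicate 3 or without Q63E replicate 3. HLA-B, a heavy chain, was at 41.9, 29.7 and 30.4 in VEC and fell to 9.24, 11.2 and 15.4 in Q63E (log2 fold change −1.44, adjusted p = 0.00358 in limma), and its call held under all 13 alternatives. HLA-C, another heavy chain, fell from 110.5 ± 3.76 (SD, n = 3) to 82.7 ± 3.61, a call that also held under all 13. B2M, the light chain, went from 1177 ± 108 to 899 ± 81.5, and NLRC5 from 4.19 ± 1.26 to 1.92 ± 0.700 (log2 fold change −0.83, adjusted p = 0.0451 in limma). The call of B2M was lost under 5 of 13 alternatives and that of NLRC5 under 8, among them leaving out any library but Q63E replicate 1 for NLRC5, and VEC replicate 3, Q63E replicate 1 or Q63E replicate 3 for B2M. NLRC5 is known to drive class I genes along with TAP1 and PSMB9. The difference between this list and the 8 members was not tested. HLA genes are alike in sequence, so their reads may be shared.

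Of 13 receptors, kinases and transcription factors of interferon and NF-kB signalling, 3 were lower and 1 higher, with a median of −0.16. Of the 3, RELA lost its call under 7 of 13 alternatives (highest adjusted p = 0.0826 in limma). IFNAR1, a chain of the type I interferon receptor, fell from 22.5 ± 3.0 (SD, n = 3) to 13.7 ± 2.26 and NFKB1, an NF-kB subunit, from 30.4 ± 2.05 to 19.5 ± 1.82. Their neighbours within 1 Mb were lower too, with a median of −0.43 over 20 genes for IFNAR1 and −0.46 over 9 genes for NFKB1. STAT2, a factor of type I interferon signalling, rose from 12.1 ± 0.735 to 16.5 ± 1.36. IRF1, which acts on the promoter shared by TAP1 and PSMB9, was at 14.9 ± 1.1 in VEC and 12.9 ± 0.9 in Q63E and did not pass (adjusted p = 0.133 in limma).

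**Figure D5:**
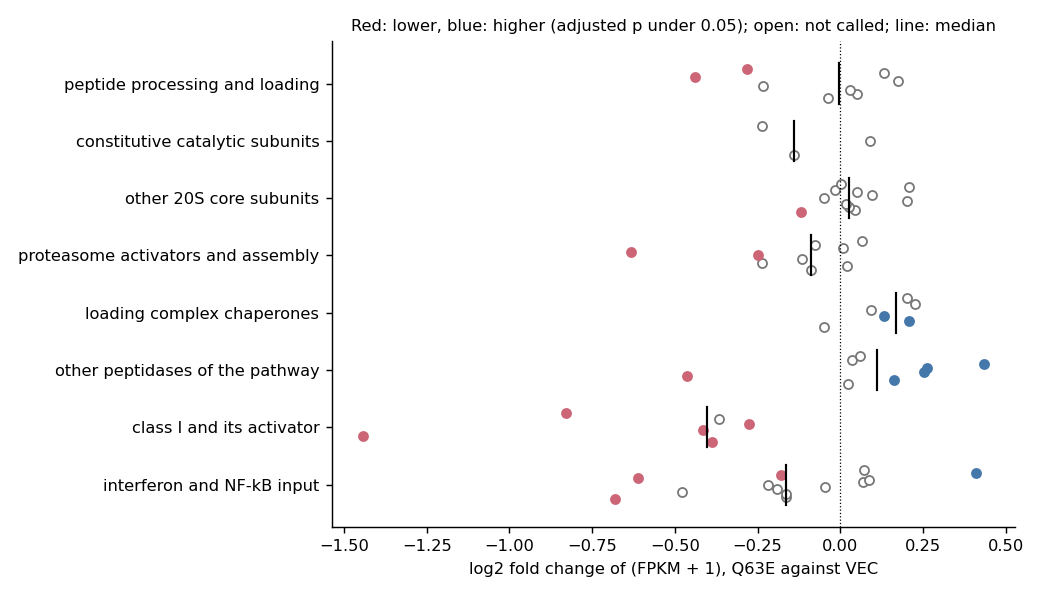
Log2 fold changes of value + 1 in Q63E against VEC for the 8 genes and 7 lists of the same pathway, 1 point per gene, with the list median as a line. The 8 genes centre on 0, the class I list lies wholly below 0 with a median of −0.40, and the loading chaperones have a median of 0.17.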

How the data were processed

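Total RNA of 6 T24 libraries (3 VEC, 3 Q63E) was sequenced from Illumina TruSeq libraries, per the labels' protocols. Each library's deposited file lists 58882 features, and its values were read as FPKM made by the authors, although no header or label states a unit. Bowtie2, HISAT2 2.1.0 and GRCh38.p10 are listed per the submitters' processing notes, without the counting program, annotation or strand setting. Low values were searched for whole-read steps, and at best 24.4% to 26.0% per library lay within 0.1 of a whole number. With no steps, 20% would do so at a fixed depth. The best was taken over many depths with a single length per gene, so this search cannot decide whether steps are present. Symbols were paired for 57392 of 58233 Ensembl identifiers, and 649 assembled loci were left out. Genes with a mean of at least 1 were tested with limma 3.58.1 in R 4.3.3 on log2(value + 1), two-sided, with a variance trend and Benjamini-Hochberg adjustment. Fold changes on this scale understate low genes, and linear folds are ratios of means. The code was tested on simulated data. Single ratios were compared with exact permutation tests. Named were the 8 members, the catalytic counterparts, up to 3 of the largest called changes of a list, and the gene most like each member. Other genes in the lists were named for their role after their values were seen. The members and lists were chosen with earlier results of these data known. Some genes of the lists are not reported here.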

Additional observations from a re-analysis of the deposited data

How the results depend on the processing

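The direction of TAP1 and of TAPBP was the same under all 13 alternatives, which changed the pseudocount, the filter on low values, the scaling or the variance model, added the replicate number, or left out 1 library. The call of TAPBP was lost in 9 of them, which left 1 member called lower, or 0 with the block below. Its log2 fold change stayed at −0.28 with no filter, with a minimum mean of 0.1 and without the variance trend (adjusted p = 0.0846, 0.0576 and 0.0610 in limma) and was −0.25 with values rescaled to a common sum (0.0794). Leaving out 1 library gave −0.34 to −0.23 for TAPBP, 1 to 2 members called lower and 994 to 1153 genes called higher. It turned the sign of genes that were not called: TAP2 ran from −0.0878 to 0.345 (−0.0018 without VEC replicate 2), ERAP2 from −0.0323 to 0.139, PSMB10 from −0.0322 to 0.0806 and the log2 PSMB8/PSMB5 difference from −0.20 to 0.0088. Over the 13346 tested genes the replicate numbers showed no pairing: same-numbered libraries had correlations of deviations of −0.0419, −0.00866 and −0.0249. Correlations over all genes cannot show whether single genes are paired. TAP2, with the same replicate order in both groups, had an adjusted p of 0.739 in limma and 0.299 with the replicate number added. With a replicate block 2208 genes were called, 942 higher, and 0 members, with TAP1 at −0.44 (adjusted p = 0.0529 in limma) and TAPBP at −0.28 (0.0670). The cause of these losses was not tested, beyond the larger number of genes tested with a looser filter (26697 and 19172) and the fewer libraries or degrees of freedom. Depth is unknown, so the precision of low genes such as ERAP2 rests on the replicates alone.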
